A study of Mus musculus with 9 samples.

Results

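The respiratory chain genes of the mouse colon were chosen by symbol. They are every gene of the table whose name begins with mt-, Nduf, Uqcr, Atp5 or Cox4 to Cox8, together with Sdha, Sdhb, Sdhc, Sdhd, Cycs and Cyc1, provided that it reached at least 1 FPKM (fragments per kilobase of transcript, scaled to library size) in at least 1 sample. Of the 21498 gene symbols, 107 matched by name and 102 reached that level, 91 of them encoded in the nucleus and 11 in the mitochondrial genome. Atp5g2, with a highest value of 1.03 FPKM, lay just inside the minimum, and mt-Nd3, with a highest value of 0.697 FPKM, lay just outside it. The other genes left out were mt-Nd4l, which did not exceed 0.54 FPKM, and Cox4i1, Cox7b2 and Cox8c, which were listed at 0 in all 9 mice.

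RNA was sequenced from the colorectum of 9 male mice of the outbred ICR strain, 3 per group, which were 5 weeks old when the experiment began. The labels give the end of week 18 as the time of sampling for the IgG and anti-A9 mice. Control mice received no carcinogen, no DSS and no antibody, and their tissue is labelled normal colorectal mucosa. IgG and anti-A9 mice were given azoxymethane (AOM), a colon carcinogen, once at 10 mg/kg and then 3 cycles of dextran sulfate sodium (DSS), which injures the colonic epithelium, as a drink (a first cycle of 7 days at 2%, and later cycles of 5 days at 1.5%). During the DSS cycles they were injected intravenously with 1.5 mg/kg of a negative control IgG antibody (IgG) or of an antibody against S100a9, an inflammatory protein of neutrophils (anti-A9), and their tissue is labelled colorectal adenocarcinoma in both groups. Because the tissue label differs between Control and both other groups, an effect of AOM/DSS on one kind of cell and a difference in the tissue sampled cannot be told apart. Over the genes tested, log2 values of anti-A9 mice correlated with those of Control mice at 0.914 to 0.972. With IgG mice the correlations were 0.839 to 0.926. The study reports fewer tumors in anti-A9 than in IgG mice and calls the anti-A9 tissue colon mucosa. How much tumor each sample held is not given, so anti-A9 against IgG has the same limit.

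The respiratory chain passes electrons from NADH and succinate to oxygen through complexes I to IV of the inner mitochondrial membrane, and the ATP synthase, complex V, uses the resulting proton gradient to make ATP. Most subunits are encoded in the nucleus and imported, whereas a few core subunits of complexes I, III, IV and V are encoded by the mitochondrial DNA, so that each of these complexes is built from both genomes. Complex II, which is also an enzyme of the citric acid cycle, is the one complex of purely nuclear origin. Mature colonocytes are rich in mitochondria and oxidize butyrate made by the gut bacteria as their main fuel.

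No source used here names the unit of the tables, which was read as FPKM because the values are decimal, their totals differ between mice and Cufflinks is among the named tools. The deposited values summed to between 308377 and 408811 FPKM per mouse, and since the tables hold no fragment counts, the spread over 3 mice is the only error that could be given. The epithelial markers Epcam (584 to 890 FPKM) and Cdh1 (151 to 206 FPKM) were high in all 9 mice. One library stood apart for the respiratory chain. In Control 3, 80 of the 90 nuclear members with a known transcript length lay above both other Control mice, against 38.8% of all genes, with a median difference of 0.48 on the log2 scale. The difference between Control 3 and the other Control mice went with transcript length across all genes (Spearman correlation -0.51 over 14926 genes of this one sample) and across these members (-0.41): short transcripts were listed higher in Control 3. IgG 3 differed from its group in the same direction, with 60 of 90 members above both other IgG mice and a correlation with length of -0.23. The median transcript length was 1170.5 bases for the nuclear members and 3241.5 bases for all genes tested, so values without Control 3 and after a correction for transcript length are given beside the results they change. That correction also removes any difference between groups that goes with length.

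On the scale as deposited, the anti-A9 mice had the highest shares of mitochondrially encoded members and, with overlap, low shares of nuclear members. Mitochondrially encoded members made up 5.51, 5.9 and 3.19% of the total FPKM in the Control mice, 5.44, 4.86 and 3.58% in the IgG mice and 6.86, 6.48 and 6.72% in the anti-A9 mice. Every anti-A9 mouse was above every other mouse, and Control 3 and IgG 3 were the lowest. The nuclear members made up 3.32, 3.85 and 4.4% in the Control mice, 3.25, 3.47 and 3.83% in the IgG mice and 3.09, 3.11 and 3.37% in the anti-A9 mice. Here Control 3 was the highest, and the groups overlapped, since anti-A9 3 exceeded Control 1 and IgG 1. The ratio of the summed mitochondrial to the summed nuclear FPKM was 1.66, 1.53 and 0.725 in the Control mice, 1.67, 1.4 and 0.934 in the IgG mice and 2.22, 2.08 and 2 in the anti-A9 mice, so that all 3 anti-A9 mice were above the other 6. The lowest ratios belong to Control 3 and IgG 3, the libraries in which short transcripts were listed higher. These shares are sums over chosen genes, were not tested and were not recomputed after the length correction. With that correction the median log2 fold changes of anti-A9 against IgG were 0.13 for nuclear and 0.59 for mitochondrially encoded members. Against Control they were -0.18 and 0.48. In RNA from whole tissue, fewer cells of a type and less RNA per cell cannot be told apart.

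**Figure D1:**
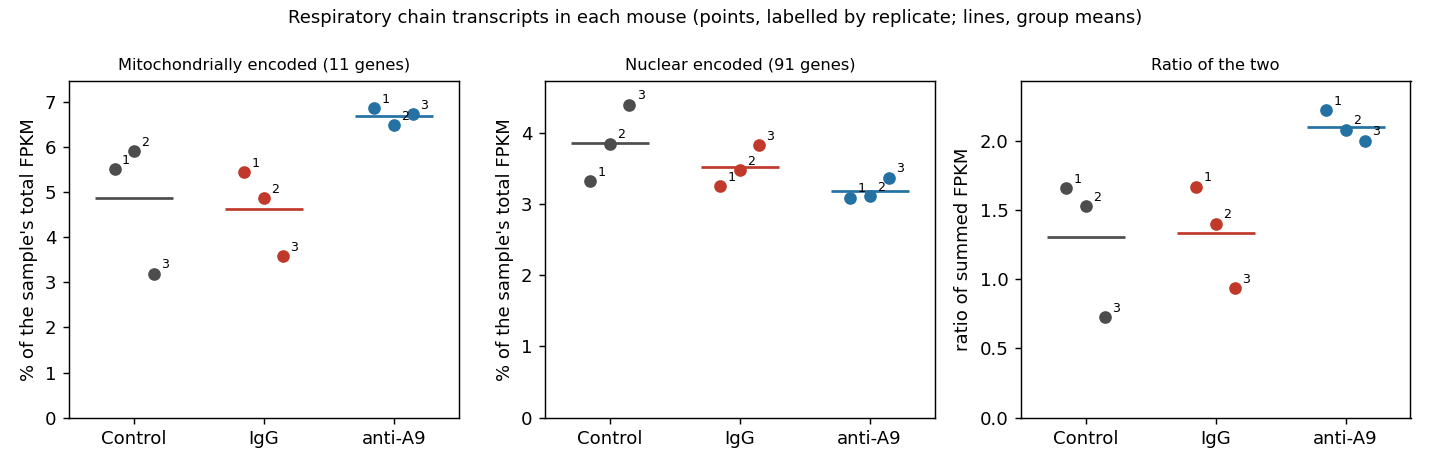
Share of each mouse's total FPKM (%) held by the 11 mitochondrially encoded and the 91 nuclear encoded respiratory chain genes, and the ratio of both sums; each point is a mouse, labelled by its replicate number, and lines are group means. The 3 anti-A9 mice had ratios of 2 to 2.22, above all other mice, and replicate 3 of Control and of IgG had the lowest ratios of their groups, 0.725 and 0.934.

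Ndufa4 encodes a small subunit first assigned to complex I and now placed in complex IV. It was listed at 156, 175 and 237 FPKM in the Control mice, at 368, 255 and 352 FPKM in the IgG mice and at 157, 170.1 and 153 FPKM in the anti-A9 mice. All 3 IgG mice lay above all 6 other mice. Ndufa4 was the member that rose in IgG against Control (log2 fold change 0.78, standard error 0.21, adjusted p = 0.045 from limma's moderated test with Benjamini-Hochberg adjustment over 15278 genes) and 1 of 6 that fell in anti-A9 against IgG (log2 fold change -1.0, standard error 0.21, adjusted p = 0.017). Both comparisons share the IgG mice, so the rise and the fall are not separate evidence. The rise in IgG passed the threshold of 0.05 in only 2 of 9 fits that each omitted 1 mouse, those without Control 3 or IgG 2 (adjusted p from 0.024 to 0.14 over the 9 fits, log2 fold change 0.66 to 0.96). The fall in anti-A9 passed in 6 of 9, failed without any 1 of the 3 anti-A9 mice (adjusted p up to 0.061), and was lost after the correction for transcript length.

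Ndufc1 and Cox7a1 were the members that fell in IgG against Control. Ndufc1, an accessory subunit of the membrane arm of complex I, was listed at 21.6, 23.3 and 29.3 FPKM in Control, 13.4, 15.7 and 16.7 FPKM in IgG and 16.1, 14.5 and 17 FPKM in anti-A9. All 3 Control mice were above the 6 AOM/DSS mice, and the AOM/DSS groups overlapped. The fall in IgG (log2 fold change -0.69, standard error 0.15, adjusted p = 0.026, limma) was the steadiest of the members' calls, passing in 7 of 9 fits without a mouse and failing without Control 2 or IgG 1 (adjusted p up to 0.075). The comparison of anti-A9 with Control gave a log2 fold change of -0.63 that did not pass (adjusted p = 0.3, limma).

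Cox7a1 encodes the heart and muscle form of a complex IV subunit, whose widely expressed counterpart is Cox7a2. It was listed at 13.8, 14.8 and 24.3 FPKM in Control, 3.3, 5.06 and 8.47 FPKM in IgG and 6.35, 7.09 and 11.8 FPKM in anti-A9. Control 3 was far above the other Control mice, yet the lowest Control mouse was still above the highest IgG mouse. The fall in IgG (log2 fold change -1.69, standard error 0.38, adjusted p = 0.026, limma) passed in 5 of 9 fits without a mouse and failed without Control 1, Control 2, Control 3 or IgG 1 (adjusted p up to 0.068). Cox7a2 was listed at 229.7, 265 and 376 FPKM in Control, 173, 237 and 265 FPKM in IgG and 176, 214 and 190.3 FPKM in anti-A9, with overlapping Control and IgG mice and a log2 fold change of -0.36 (adjusted p = 0.34, limma).

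The promoters of these 3 genes are shown because regulators of mitochondrial biogenesis bind many respiratory chain promoters. Uqcr11, shown for comparison, is not typical: of the members matched to a promoter, it alone held 2 of the 3 motifs searched. Each is RefSeq sequence on GRCm38.p6, from 250 bases before to 50 after the start of the gene, read on the gene's strand. Letters were searched on both strands for NRF1 (GCGCATGC), GABP (CCGGAAGT) and YY1 (AAGATGGCG), 3 factors known for this role, and matches are in capitals. No pair of these motifs contains the other.
Ndufa4, chr6:11907401-11907700, minus strand: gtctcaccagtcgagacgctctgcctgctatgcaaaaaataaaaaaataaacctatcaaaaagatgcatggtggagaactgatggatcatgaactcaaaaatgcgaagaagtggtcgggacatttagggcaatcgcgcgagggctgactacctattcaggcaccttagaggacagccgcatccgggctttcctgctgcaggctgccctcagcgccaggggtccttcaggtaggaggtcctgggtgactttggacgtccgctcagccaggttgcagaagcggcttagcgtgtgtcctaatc
Ndufc1, chr3:51408906-51409205, minus strand: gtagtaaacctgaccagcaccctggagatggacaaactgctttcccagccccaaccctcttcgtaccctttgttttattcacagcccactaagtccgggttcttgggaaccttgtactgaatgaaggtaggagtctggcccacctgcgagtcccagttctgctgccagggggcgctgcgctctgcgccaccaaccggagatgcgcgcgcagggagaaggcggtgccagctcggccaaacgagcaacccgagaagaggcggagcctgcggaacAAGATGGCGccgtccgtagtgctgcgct
Cox7a1, chr7:30183921-30184220, plus strand: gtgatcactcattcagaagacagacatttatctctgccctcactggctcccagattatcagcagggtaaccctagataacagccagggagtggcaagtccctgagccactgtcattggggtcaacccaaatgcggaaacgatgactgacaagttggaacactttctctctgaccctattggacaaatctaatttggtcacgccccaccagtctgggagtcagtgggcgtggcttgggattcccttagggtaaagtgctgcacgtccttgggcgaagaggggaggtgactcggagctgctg
Uqcr11, chr10:80406772-80407071, minus strand: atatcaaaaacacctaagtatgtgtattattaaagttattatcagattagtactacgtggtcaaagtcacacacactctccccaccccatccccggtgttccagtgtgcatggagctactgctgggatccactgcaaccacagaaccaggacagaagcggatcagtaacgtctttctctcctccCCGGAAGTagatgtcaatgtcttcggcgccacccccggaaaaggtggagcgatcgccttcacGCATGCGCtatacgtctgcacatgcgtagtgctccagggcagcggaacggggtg
Ndufc1 held the YY1 letters, Uqcr11 those of NRF1 and GABP, and neither the Ndufa4 nor the Cox7a1 window held any of the 3. Promoters were matched for 76 of the 91 nuclear members. A gene was counted if any of its promoters matched, and the comparison set was all 27025 RefSeq gene symbols with a promoter, expressed here or not. Of the 76, 13 (17.1%) held the NRF1 letters, against 3.05% of all symbols, 8 (10.5%) held the YY1 letters, against 1.64%, and 5 (6.58%) those of GABP, against 4.31%. At least 1 of the 3 was found in 25 members (32.9%) and in 8.47% of all symbols, so most members held none, as did Ndufa4 and Cox7a1. A match of letters describes the sequence only.

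Seen over all 102 members, few passed the adjusted threshold in IgG against Control on the scale as deposited. Of the members, 1 rose, where 8.18% of all genes tested rose, and 2 fell, where 3.01% of all genes fell. At an unadjusted p under 0.05, 1 member was higher and 12 lower, against 19.4% and 10.1% of all genes, and with a change of more than 2-fold besides 0 were higher and 2 lower, against 8.43% and 5.19%. The signs leaned downward nonetheless: 73 of 91 nuclear members had a log2 fold change below 0, against 42.4% of all genes, and the median over the 102 members was -0.23, against 0.09 over all genes. In 18 members all 3 IgG mice lay below all 3 Control mice (10.2% of all genes did so), and in 3 members, Ndufa3, Ndufa4 and Ndufc2, they lay above (20.7% of all genes). Without Control 3 the median of the members was -0.10 and 54 of 91 nuclear members were below 0. After the length correction 10 of 101 members fell instead of 2, among them Sdha, Sdhb, Uqcrc2 and Cox7b. Of the 14930 genes then tested 1194 rose and 701 fell, against 1250 and 460 of all genes without it. The nuclear median was then -0.33. In 47 of the 101 members all IgG mice then lay below all Control mice, against 14.6% of all genes.

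Between anti-A9 and IgG, 6 members fell and none rose, where 14.4% of all genes fell and 6.72% rose. Besides Ndufa4 they were Ndufs8, Ndufa7, Ndufc2, Ndufaf3 and Atp5e. At an unadjusted p under 0.05, 14 members were lower and 1 higher, against 24.2% and 14.9% of all genes, and with a change of more than 2-fold besides 1 was lower and 0 higher, against 8.38% and 7.64%. In 26 members, all nuclear, the 3 anti-A9 mice lay below the 3 IgG mice (28.5% of all genes), and in 7 members, 5 of them mitochondrially encoded, they lay above (18.5% of all genes). The member median was -0.20, against -0.06 over all genes, but it depended on transcript length. After the correction it was 0.17, no member fell, and 4 of 101 (Cox7a1, Cox7b, Ndufc1 and Uqcrc2) rose. Of the 14930 genes then tested, 921 rose and 1496 fell, so the count of 4 is not above the share of all genes. Across all genes the log2 fold change of anti-A9 against IgG went with transcript length, with a Spearman correlation of 0.30 over 14926 genes (0.19 over the 90 nuclear members). When FPKM were rescaled to the total without mitochondrially encoded genes, 2 members fell, and over all genes 1001 rose and 982 fell, against 1026 and 2193 on the deposited scale. The nuclear median was -0.21 as deposited, -0.07 rescaled and 0.13 corrected for length.

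Ndufs8, a core subunit that carries iron-sulfur clusters toward ubiquinone, was listed at 68.3, 77.7 and 109 FPKM in Control, 78.2, 84.8 and 90.05 FPKM in IgG and 51.9, 57.1 and 58.2 FPKM in anti-A9. All 3 anti-A9 mice were below the 6 other mice (log2 fold change -0.60, standard error 0.18, adjusted p = 0.044 against IgG, limma). Atp5e, the epsilon subunit of the ATP synthase, was listed at 388, 395 and 704 FPKM in Control, 448, 527 and 589.7 FPKM in IgG and 272, 246 and 301 FPKM in anti-A9. It had the widest gap between IgG and anti-A9 after Ndufa4 among the called members, and Control 3 stood far above Control 1 and Control 2 (log2 fold change -0.93, standard error 0.26, adjusted p = 0.037 for anti-A9 against IgG, limma).

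The accessory subunit Ndufc2 was listed at 56.4, 57.1 and 67.2 FPKM in Control, 82.9, 69.7 and 68.4 FPKM in IgG and 49.7, 51.2 and 50.4 FPKM in anti-A9. The 3 groups did not overlap in any pair, with IgG highest and anti-A9 lowest (log2 fold change -0.54, standard error 0.13, adjusted p = 0.023 for anti-A9 against IgG, limma), although the difference between IgG and Control did not pass (log2 fold change 0.29, adjusted p = 0.17). Ndufa7, another accessory subunit of complex I, was listed at 174, 182 and 245 FPKM in Control, 187, 186 and 233 FPKM in IgG and 122, 131 and 136 FPKM in anti-A9. Ndufaf3, a complex I assembly factor, was listed at 12.1, 13.6 and 20.6 FPKM in Control, 17.9, 15.1 and 16.7 FPKM in IgG and 9.25, 10.2 and 11.7 FPKM in anti-A9. For both genes the anti-A9 mice lay below all others, with log2 fold changes against IgG of -0.63 for Ndufa7 (adjusted p = 0.036, limma) and -0.67 for Ndufaf3 (adjusted p = 0.047, limma). Of the fits without a mouse, 5 of 9 kept the call of Ndufc2, 3 of 9 that of Ndufa7 and 2 of 9 those of Ndufaf3, Ndufs8 and Atp5e. Each of these 5 calls was lost without any 1 of the anti-A9 mice and without IgG 1, all but Ndufc2 also without IgG 3 and Control 2, and Ndufaf3, Ndufs8 and Atp5e without IgG 2 too.

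**Figure D2:**
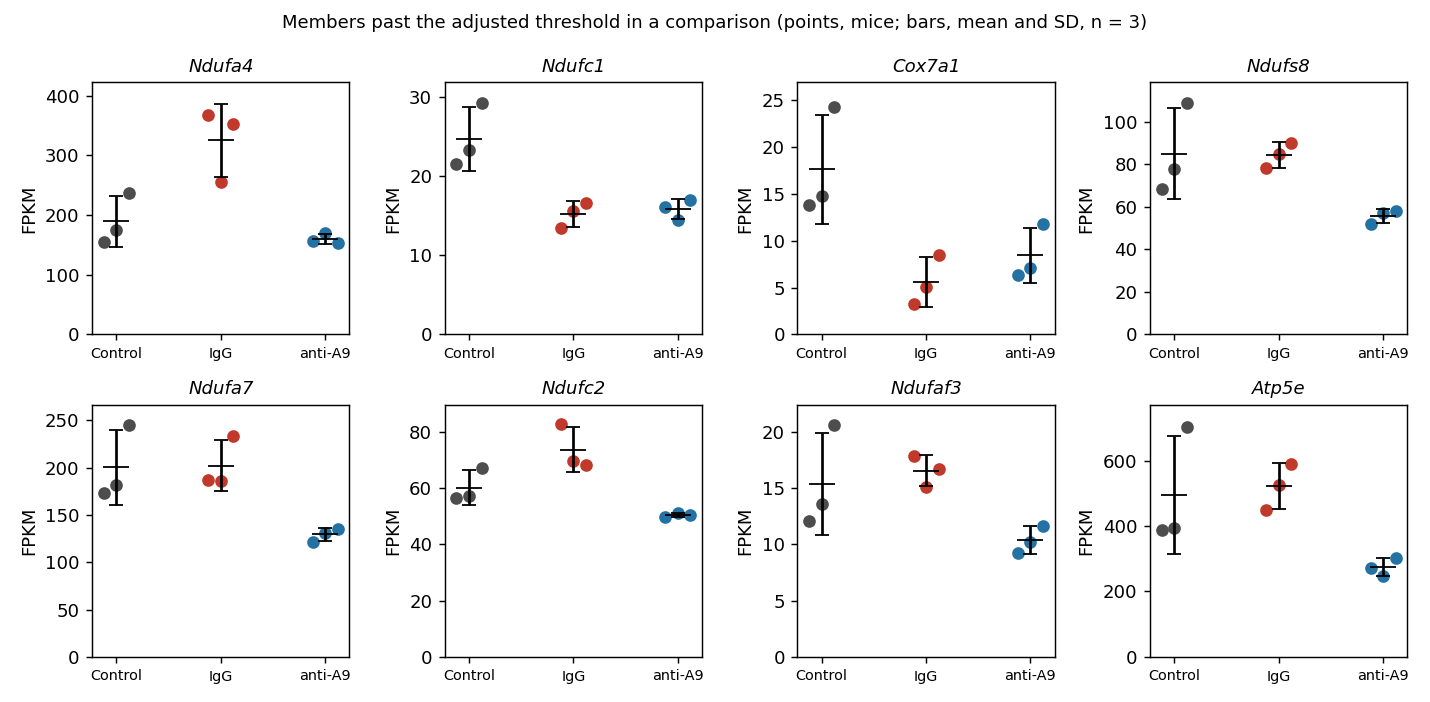
FPKM in each mouse of the 8 members that passed an adjusted p of 0.05 in a comparison; points are mice and bars the mean and SD of 3 mice, on axes that start at 0. Ndufa4 was highest in IgG, Ndufc1 and Cox7a1 were highest in Control, and the other 5 were lowest in anti-A9, with adjusted p from 0.023 to 0.047 for anti-A9 against IgG, calls that were lost after a correction for transcript length.

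In anti-A9 against Control no member passed the adjusted threshold in limma, where 0.00655% of all genes rose and the same share fell. At an unadjusted p under 0.05, 44 members were lower (7.10% of all genes) and 0 higher (8.87%), and with a change of more than 2-fold besides 2 were lower and 0 higher, against 0.864% and 2.28%. The direction was shared by nearly all nuclear members. Of these, 87 of 91 had a log2 fold change below 0, against 46.6% of all genes, with a median of -0.49, against 0.04 over all genes, and in 66 of the 91 every anti-A9 mouse was below every Control mouse, against 13.7% of all genes. The size, less than the direction, turned on the scale and on Control 3. Without Control 3 the nuclear median was -0.31 with 85 of 91 below 0. After the correction for transcript length it was -0.18 with 76 of 90 below 0, and 30 instead of 66 members did not overlap, against 13.7% of all genes. When FPKM were rescaled to the total without mitochondrially encoded genes, which moved the median of all genes to 0.25, the nuclear median was -0.27, 77 of 91 were below 0 and 25 did not overlap, against 3.46% of all genes. Across all genes the log2 fold change of this comparison had a Spearman correlation of 0.46 with transcript length, and across the 90 nuclear members 0.31. The comparison shares its Control mice with IgG against Control and its anti-A9 mice with anti-A9 against IgG.

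**Figure D3:**
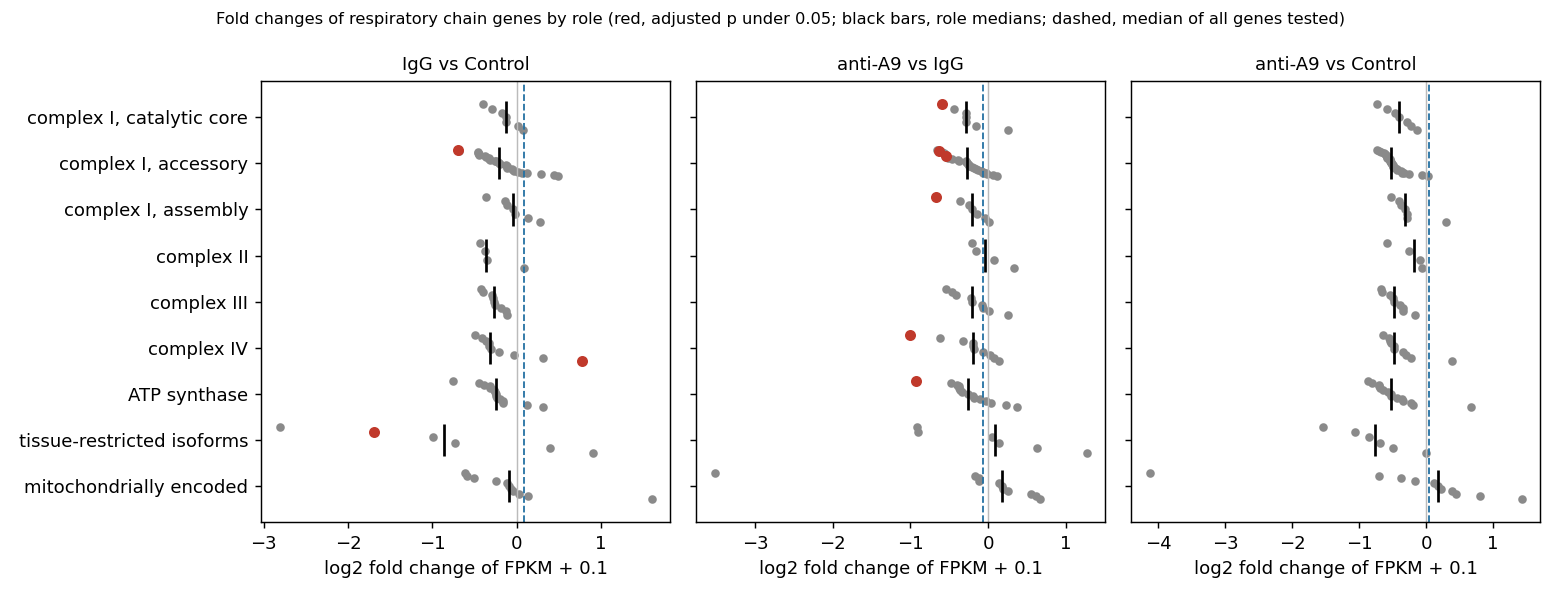
Log2 fold change of FPKM + 0.1 of each member (points; red where the adjusted p was under 0.05), grouped by role, in the 3 comparisons; black bars are role medians and the dashed line is the median of all genes tested. In anti-A9 against Control the medians of complexes I, III and IV and of the ATP synthase lay between -0.31 and -0.53 and that of the mitochondrially encoded members at 0.17, which was -0.03 without Control 3; the median of all nuclear members in anti-A9 against IgG, -0.21 as drawn, was 0.13 after correction for transcript length.

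Medians and counts by complex, here and below, are on the scale as deposited and were not recomputed without Control 3 or after the length correction. The 7 catalytic core subunits of complex I had medians of -0.13 in IgG against Control, -0.29 in anti-A9 against IgG and -0.41 in anti-A9 against Control. Ndufs7, another iron-sulfur subunit of the core, had the largest of these differences against Control, with 126, 148 and 230.3 FPKM in Control and 91.1, 96.5 and 107 FPKM in anti-A9. Control 3 was the highest of all mice, the groups did not overlap, and the log2 fold change was -0.73 (adjusted p = 0.3, limma). Ndufs1, the largest core subunit, went another way, with 38.9, 40.8 and 31.6 FPKM in Control, 28, 30.7 and 25.4 FPKM in IgG and 30.1, 33.5 and 37.3 FPKM in anti-A9. For Ndufs1 the IgG mice were below all Control mice and Control 3 was the lowest Control mouse, but the log2 fold change of -0.40 in IgG did not pass (adjusted p = 0.11, limma).

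The 29 accessory subunits of complex I had medians of -0.21, -0.27 and -0.53 in IgG against Control, anti-A9 against IgG and anti-A9 against Control, and in 25 of them every anti-A9 mouse lay below every Control mouse, where 13.7% of all genes did so, a count on the scale as deposited that was not repeated for this role after the length correction. Ndufa13, also known as a cell death regulator, was furthest from Control, with 105, 119 and 181 FPKM in Control and 72.8, 78.7 and 86.2 FPKM in anti-A9, a log2 fold change of -0.73 (adjusted p = 0.3, limma). The 7 assembly factors named Ndufaf had medians of -0.04, -0.21 and -0.31 in the same order. Ndufaf4 was the exception among them, with 7.31, 6.85 and 5.48 FPKM in Control and 8.21, 7.2 and 8.59 FPKM in anti-A9, overlapping groups and a log2 fold change of 0.29 (adjusted p = 0.47, limma); it is named after its values were seen.

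On the scale as deposited, complex II was the complex least displaced in anti-A9 against Control, with a median of -0.18. Its longest transcripts of Sdha and Sdhc have 2900 and 3171 bases, against a median of 1170.5 for the nuclear members. After the length correction the median of all nuclear members was itself -0.18, and that of complex II alone was not computed. Sdha, the flavoprotein that oxidizes succinate, was listed at 125, 123 and 104 FPKM in Control, 84.4, 94 and 82.2 FPKM in IgG and 99, 117 and 112 FPKM in anti-A9. The IgG mice lay below all others, and neither the difference from Control (log2 fold change -0.43, standard error 0.13, adjusted p = 0.073, limma) nor that from anti-A9 (log2 fold change 0.33, standard error 0.13, adjusted p = 0.11, limma) passed. Without Control 3, Sdha fell in IgG against Control, and it also did so after the length correction. Sdhb, the iron-sulfur subunit, was listed at 134, 136 and 191 FPKM in Control, 99.6, 119.7 and 134 FPKM in IgG and 87.6, 109 and 108 FPKM in anti-A9. Control 3 was again apart, all Control mice were above all AOM/DSS mice, and the log2 fold changes against Control were -0.37 in IgG (adjusted p = 0.22) and -0.58 in anti-A9 (adjusted p = 0.3, limma). The membrane anchors were closer together. Sdhc was listed at 34.2, 37.6 and 40.3 FPKM in Control, 25.6, 31 and 31.7 FPKM in IgG and 29.4, 32.8 and 31.2 FPKM in anti-A9, and Sdhd at 201, 226 and 209, 193, 226 and 261 and 181, 221 and 207 FPKM. Control exceeded both other groups for Sdhc without overlap, the groups overlapped for Sdhd, and no comparison of either gene passed.

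On the scale as deposited, all 9 nuclear subunits of complex III had log2 fold changes below 0 in both comparisons with Control. The medians were -0.27 in IgG and -0.48 in anti-A9, and none passed. Uqcrc2, a core subunit, was listed at 175, 177 and 171 FPKM in Control, 120.3, 137 and 134 FPKM in IgG and 136, 170.1 and 162 FPKM in anti-A9. Its 3 IgG mice lay below all Control mice (log2 fold change -0.42, adjusted p = 0.081, limma), and the Control mice were above all anti-A9 mice by a smaller margin. Uqcr10, a small subunit, was listed at 535, 616 and 1033 FPKM in Control, 553, 629 and 752 FPKM in IgG and 388, 471 and 463 FPKM in anti-A9, with anti-A9 below all other mice (log2 fold change against Control -0.67, adjusted p = 0.3, limma). Cyc1, the heme subunit that hands electrons to cytochrome c, was listed at 241, 249.8 and 331 FPKM in Control, 191, 232 and 249 FPKM in IgG and 193, 222 and 226 FPKM in anti-A9. Its anti-A9 mice were below all Control mice, IgG overlapped both groups, and no comparison passed.

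Cytochrome c itself, encoded by Cycs, was listed at 2.09, 2.1 and 3.42 FPKM in Control, 1.49, 2.33 and 1.27 FPKM in IgG and 1.35, 1.55 and 2.24 FPKM in anti-A9. The groups overlapped, and these levels were lower than those of Cyc1 by a wide margin on the FPKM scale. Of the 50-base windows of Cycs transcripts, 28.5% also occurred in another annotated gene. The 10 general subunits of complex IV had medians of -0.31 in IgG against Control and -0.48 in anti-A9 against Control, Ndufa4 being the one that rose. Cox5b was listed at 3.72, 6.08 and 7.53 FPKM in Control and 2.6, 3.31 and 4.94 FPKM in anti-A9, the largest difference of this role against Control (log2 fold change -0.65, adjusted p = 0.33, limma), with overlapping groups. Cox7c, a small subunit, was the member of this role on the other side of 0, with 2.46, 2.96 and 3.58 FPKM in Control and 3.68, 5.02 and 3.21 FPKM in anti-A9 (log2 fold change 0.38, standard error 0.23, adjusted p = 0.41, limma), and it is named after its values were seen. Cox7a2l, which joins complexes III and IV into supercomplexes, was listed at 115, 141 and 177 FPKM in Control, 114, 142 and 159.8 FPKM in IgG and 105, 115 and 112 FPKM in anti-A9. The anti-A9 mice were below all Control mice, although the gap between Control 1 and anti-A9 2 was under 1 FPKM, and no comparison passed.

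The ATP synthase was represented by 15 subunits. As deposited, 14 had a log2 fold change below 0 in anti-A9 against Control (median -0.52) and 13 in IgG against Control (median -0.24). Atp5e in anti-A9 against IgG was the only call. Atp5a1 and Atp5b, the catalytic alpha and beta subunits, are named after their values were seen. Atp5b was listed at 834, 858 and 896 FPKM in Control, 713, 759.8 and 787 FPKM in IgG and 672, 802 and 741 FPKM in anti-A9, and Atp5a1 at 486, 489.9 and 505, 367, 450.2 and 440.2 and 391.8, 465 and 438 FPKM. For both genes all 6 AOM/DSS mice were below the 3 Control mice, with small log2 fold changes of -0.20 to -0.24 against Control that did not pass (adjusted p 0.38 to 0.57, limma). Atp5g1 and Atp5l varied more between mice of one group than between groups: Atp5g1 ranged from 0.238 to 8.49 FPKM and Atp5l from 1.8 to 7.22 FPKM. Atp5s and Atp5sl match by symbol but are not subunits of the synthase, and neither passed in a comparison.

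Tissue-restricted forms of complex IV subunits other than Cox7a1 and Ndufa4l2 were listed at no more than 6.46 FPKM. Cox8b, the muscle and brown fat form of subunit VIII, was listed at 0.265, 4.09 and 2.25 FPKM in Control, 0, 0 and 0.947 FPKM in IgG and 0.502, 0.532 and 0.288 FPKM in anti-A9. Cox6a2, the muscle form of subunit VIa, was listed at 0.259, 0.427 and 1.04, 0.104, 0.344 and 0.202 and 0.0775, 0.236 and 0.519 FPKM in Control, IgG and anti-A9. Both overlapped between IgG and Control, with log2 fold changes of -2.81 (adjusted p = 0.12) and -0.99 (adjusted p = 0.28, limma), which depend on the pseudocount at such levels. Cox4i2, a form of subunit IV known from lung and vessel wall, was listed at 1.74, 3.63 and 6.46 FPKM in Control, 1.94, 2.65 and 1.65 FPKM in IgG and 1.49, 2.33 and 2.68 FPKM in anti-A9. Ndufa4l2, a hypoxia-induced relative of Ndufa4, was listed at 1.57, 2.42 and 3.78, 1.33, 3.47 and 7.3 and 1.76, 2.2 and 1.25 FPKM, and Cox6b2, the testis form of subunit VIb, at 0.287, 0.352 and 0.68, 1.8, 0.28 and 1.15 and 0.515, 0.46 and 0.288 FPKM. The groups overlapped for all 3 genes in every comparison, and none of them passed with all 9 mice. Without IgG 3, Cox8b fell in IgG against Control, and without IgG 2, Cox6b2 rose in IgG against Control and fell in anti-A9 against IgG.

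Markers of fat and muscle are given beside Cox7a1. In IgG against Control, where 3.01% of all genes fell, 5 of the 10 adipocyte markers tested fell. Among them was Adipoq, which was listed at 4.26, 16.9 and 2.99 FPKM in Control and at 0, 1.23 and 0 FPKM in IgG (adjusted p = 0.022, limma; lost without Control 1, Control 2, IgG 1 or IgG 3). The summed adipocyte level was 119 to 343 FPKM in Control, 58.1 to 111 FPKM in IgG and 52.9 to 74.5 FPKM in anti-A9. Of the 12 striated muscle markers tested, 2 fell in the same comparison, Eno3 and Myh2. Myh2 was near the minimum for a test, at 0.0222 to 0.159 FPKM over all mice. The defining genes Acta1, listed at 0 in all mice, and Mb, listed at no more than 0.0508 FPKM, did not reach that minimum. In anti-A9 against IgG 4 of these 12 rose and 2 fell, where 6.72% of all genes rose and 14.4% fell. None of the 10 smooth muscle markers passed in IgG against Control, their sum being 1858 to 2948 FPKM in Control and 536 to 3330 FPKM in IgG. In anti-A9 against IgG, 3 of these 10 rose (6.72% of all genes), and Cox7a1 gave a log2 fold change of 0.63 (adjusted p = 0.25, limma). The part of these cell types in the fall of Cox7a1 was not tested.

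Of the colonic epithelial markers, 3 of 14 fell in IgG against Control (3.01% of all genes) and 3 rose in anti-A9 against IgG (6.72%), namely the surface colonocyte genes Car4, Slc26a3 and Car1. Slc26a3, the chloride exchanger of the absorptive surface, was listed at 200.1, 186 and 85 FPKM in Control, 2.79, 29.9 and 8.26 FPKM in IgG and 118, 139.6 and 233 FPKM in anti-A9. All 3 IgG mice were below all others, and the fall in IgG was lost without Control 2. The summed epithelial level was 7073 to 8990 FPKM in Control, 3973 to 7344 FPKM in IgG and 5670 to 7557 FPKM in anti-A9. Neutrophil markers moved the other way, with 7 of 8 higher in IgG than in Control (8.18% of all genes) and 6 of 8 lower in anti-A9 than in IgG (14.4%). S100a9 was listed at 0.37, 0.859 and 0.575 FPKM in Control, 63.1, 173 and 267 FPKM in IgG and 10.3, 11.6 and 5.54 FPKM in anti-A9. The part of these cells in the levels of the respiratory chain genes was not tested.

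None of the 11 mitochondrially encoded members passed in any comparison with all 9 mice, and mt-Atp6 fell in anti-A9 against IgG when IgG 2 was left out. mt-Co1, the catalytic subunit of complex IV (chromosome M, 5328 to 6872 on GRCm38), was the most abundant, at 9492, 9271 and 5242 FPKM in Control, 7347, 7703 and 4878 FPKM in IgG and 9511, 10471 and 10156 FPKM in anti-A9. Every anti-A9 mouse was above every other mouse, anti-A9 1 only barely above Control 1. The log2 fold changes were 0.62 against IgG (standard error 0.56, adjusted p = 0.42, limma) and 0.38 against Control (adjusted p = 0.75, limma), and neither passed. That standard error is moderated over genes of like level and is not the spread of these mice alone. mt-Nd5, a proton pumping subunit of complex I, was listed at 836, 734 and 336 FPKM in Control, 766, 678 and 519 FPKM in IgG and 1066, 1142 and 895 FPKM in anti-A9. It had the largest difference among the abundant transcripts (log2 fold change 0.67 against IgG, adjusted p = 0.19, and 0.80 against Control, adjusted p = 0.32, limma), again with anti-A9 above all others. mt-Nd2, of the same membrane arm, was listed at 1639, 1716 and 1062, 1466, 1532 and 1064 and 1973, 2119 and 1811 FPKM in Control, IgG and anti-A9, again with the anti-A9 mice above all others.

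The other abundant transcripts were closer to even. mt-Cytb, the one mitochondrially encoded subunit of complex III, was listed at 3685, 3944 and 2796 FPKM in Control, 3519, 3555 and 2719 FPKM in IgG and 3778, 4012 and 3843 FPKM in anti-A9. mt-Nd1 was listed at 3385, 3580 and 2391, 3464, 3179 and 2800 and 3403, 3796 and 3569 FPKM, and mt-Nd4 at 1328, 1519 and 1078, 1298, 1302 and 1115 and 1373, 1432 and 1381 FPKM. For mt-Cytb and mt-Nd4 the anti-A9 mice were above all IgG mice, while for all 3 genes Control overlapped with both other groups, and Control 3 and IgG 3 were the lowest of their groups. Without Control 3 the median log2 fold change of the 11 members in anti-A9 against Control went from 0.17 to -0.03. mt-Nd6, the one protein gene on the other strand, departed from this pattern, with 45.1, 48.4 and 115 FPKM in Control, 49.6, 42.2 and 35.2 FPKM in IgG and 28.6, 43.6 and 46.3 FPKM in anti-A9. Control 3 was the highest of all mice for mt-Nd6 and the lowest Control mouse for the abundant transcripts of the opposite strand. mt-Nd6 overlaps mt-Nd5 on chromosome M (13552 to 14070 and 11742 to 13565), and whether reads were counted by strand is not given in the sources used here.

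**Figure D4:**
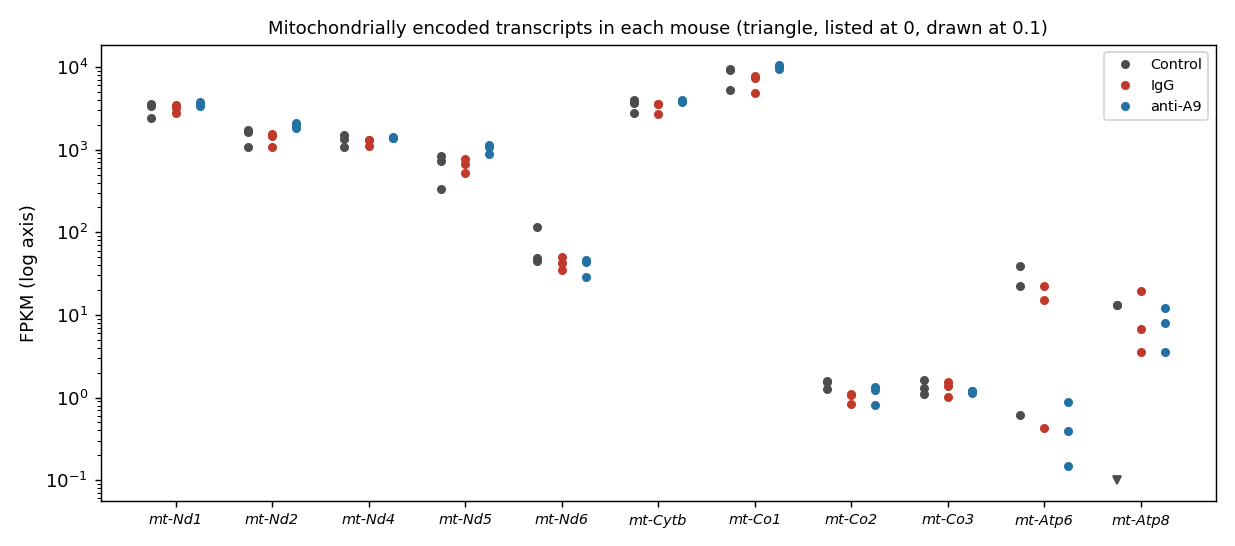
FPKM (log axis) of the 11 mitochondrially encoded members in each mouse, by group. mt-Co1, mt-Nd2 and mt-Nd5 were highest in the anti-A9 mice without passing the test, whereas mt-Co2 and mt-Co3 lay below 2 FPKM in every mouse and mt-Atp6 ranged from 0.147 to 39.3 FPKM.

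The listed levels of the remaining mitochondrial transcripts were far from those of their neighbors on the same genome. mt-Co2 was listed at 1.58, 1.26 and 1.56 FPKM in Control, 1.08, 0.839 and 1.09 FPKM in IgG and 1.25, 0.808 and 1.34 FPKM in anti-A9, and mt-Co3 at 1.64, 1.3 and 1.12, 1.55, 1.39 and 1.01 and 1.14, 1.21 and 1.21 FPKM, although both encode core subunits of the same complex as mt-Co1. mt-Atp6, a subunit of the proton channel of the ATP synthase, was listed at 22.6, 39.3 and 0.618 FPKM in Control, 22.6, 0.423 and 15 FPKM in IgG and 0.878, 0.147 and 0.39 FPKM in anti-A9, so that Control 3 and IgG 2 lay below 1 FPKM while the other mice of their groups were at 15 FPKM or more. mt-Atp8, which overlaps it, was listed at 13.3, 13.3 and 0, 3.6, 6.8 and 19.6 and 3.52, 7.9 and 12 FPKM. The groups overlapped for mt-Atp6 and mt-Atp8 in every comparison, and the mt-Co2 values were lower in all IgG mice than in all Control mice (log2 fold change -0.51, adjusted p = 0.22, limma).

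The genes at these low levels share their sequence with copies in the nuclear genome. Of all 50-base windows of the transcript, 100% for mt-Co2, 99.9% for mt-Co3, 99.5% for mt-Atp6, 98.8% for mt-Nd4l and 98% for mt-Nd3 occurred without mismatch in another gene of the GENCODE M21 annotation, mostly pseudogenes between 24611535 and 24616197 on chromosome 1 of GRCm38. For mt-Nd1, mt-Cytb, mt-Nd6 and mt-Atp8 no window was shared, for mt-Nd5 7.61%, for mt-Nd2 8.19%, for mt-Co1 51.1% and for mt-Nd4 62.2%. The 5 genes at 98% or more had means of 0.154 to 11.3 FPKM over the 9 mice, and the other 8, except mt-Atp8 and mt-Nd6, means of 775 to 8230 FPKM. mt-Atp8, without a shared window, had a mean of 8.91 FPKM and a transcript of 204 bases. How reads that fit more than 1 place were treated is not given in the sources used here, and its part in these levels was not tested.

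Nuclear genes with shared sequence also had a lower median level, with wide overlap. Of the 18 nuclear genes matched by name with at least 20% of windows shared, 9 had a mean under 10 FPKM and the median was 12.9 FPKM, whereas of the 75 with less, 17 had a mean under 10 FPKM and the median was 65 FPKM. Means of at least 100 FPKM were found in 5 of the 18, up to 528.2 FPKM, and in 32 of the 75. The shared windows of some genes lie in a neighbor that overlaps them, such as Emc8 for Cox4i1, and not in a copy elsewhere. Atp5l, with 84.8% shared, had a mean of 3.54 FPKM. Cox4i1, the general form of complex IV subunit IV, was listed at 0 in all 9 mice with 12.3% of its windows shared, so sharing did not go with the low value of every gene. Gapdh, Rps18 and Ppia, which nearly all cells express highly, had 58.4%, 79.4% and 32.4% of their windows shared and means of 0.303, 0.123 and 0.449 FPKM. A low or zero level of such a member is therefore described only as listed.

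**Figure D5:**
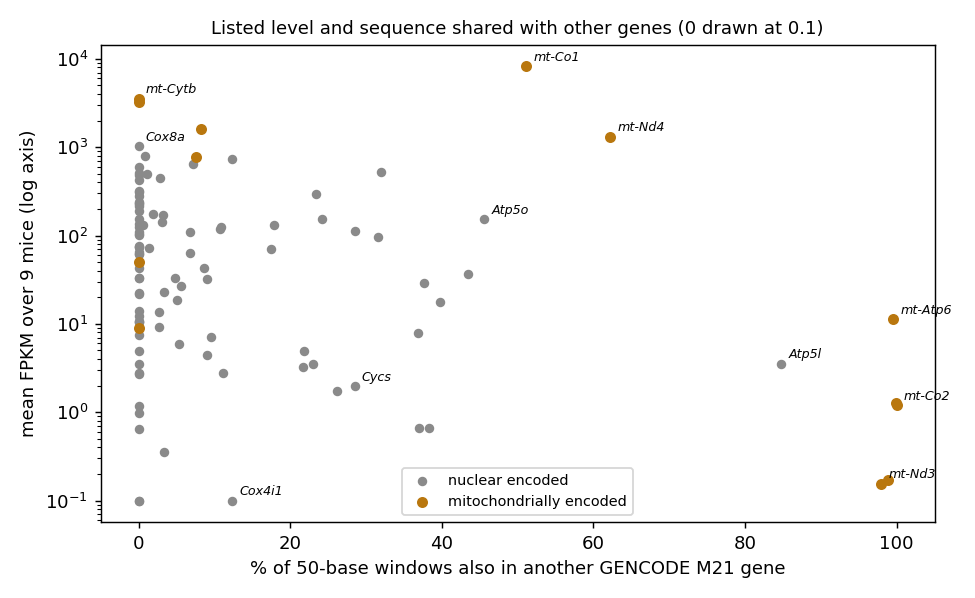
Mean FPKM over the 9 mice (log axis; 0 drawn at 0.1) of the respiratory chain genes matched by name against the percentage of their 50-base transcript windows that also occur in another annotated gene. Of the mitochondrially encoded genes, the 5 at 98% or more lay between 0.154 and 11.3 FPKM, while mt-Co1, at 51.1%, had a mean of 8230 FPKM.

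Of 41 assembly factors outside the symbol rule, 0 passed in IgG against Control and 5 fell in anti-A9 against IgG, where 14.4% of all genes fell, with a median of -0.21, against -0.06 over all genes. The count of 5 is not above that share. Sdhaf1, an assembly factor of complex II, was listed at 7.49, 7.69 and 11 FPKM in Control, 15.8, 11.3 and 18.8 FPKM in IgG and 6.32, 5.22 and 5.93 FPKM in anti-A9. The IgG mice were above and the anti-A9 mice below all others (log2 fold change -1.35, standard error 0.23, adjusted p = 0.0093 for anti-A9 against IgG, limma), and this call passed in all 9 fits without a mouse and after the length correction. Sdhaf4, of the same complex, and Timmdc1, of complex I, fell by 0.71 (adjusted p = 0.023) and 0.61 (adjusted p = 0.028) on the log2 scale in anti-A9 against IgG (limma), and both calls were lost after the length correction, after rescaling without mitochondrially encoded genes and without IgG 1, anti-A9 1 or anti-A9 2, Sdhaf4 also without IgG 3 and Timmdc1 also without anti-A9 3.

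Among 19 regulators of mitochondrial biogenesis tested, 1 rose and 2 fell in IgG against Control, and 3 rose and 1 fell in anti-A9 against IgG, where 8.18% and 3.01% of all genes rose and fell in the former and 6.72% and 14.4% in the latter. Ppargc1b, a coactivator of mitochondrial genes, was listed at 3.43, 3.04 and 2.6 FPKM in Control, 0.682, 1.76 and 1.39 FPKM in IgG and 3.6, 3.23 and 4.22 FPKM in anti-A9. The IgG mice were below all others, with a log2 fold change of -1.26 against Control (adjusted p = 0.038) and of 1.54 for anti-A9 against IgG (adjusted p = 0.017, limma). The former was lost after rescaling without mitochondrially encoded genes and passed in 2 of 9 fits without a mouse, those without IgG 1 or IgG 2, and the latter in 6, failing without any 1 of the anti-A9 mice. Myc, a growth regulator with many mitochondrial targets, was listed at 11.8, 8.59 and 11.5 FPKM in Control, 44.3, 24.4 and 22.6 FPKM in IgG and 13.2, 11.4 and 12.2 FPKM in anti-A9, opposite to Ppargc1b, with log2 fold changes of 1.45 (adjusted p = 0.01) and -1.24 (adjusted p = 0.016, limma). The first passed in all 9 fits without a mouse, and the second failed without anti-A9 2 or anti-A9 3. Esrrg, which rose by 2.12 in anti-A9 against IgG (adjusted p = 0.022, limma; 4 of 9 fits without a mouse, failing without IgG 1, IgG 3 or any 1 anti-A9 mouse), did not exceed 1.28 FPKM in any mouse. Polg2, the accessory subunit of the mitochondrial DNA polymerase, fell by 1.23 in IgG against Control (adjusted p = 0.028, limma; 4 of 9 fits, failing without Control 1, Control 2, IgG 1, IgG 3 or anti-A9 1).

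Several transcripts of the citric acid cycle and of butyrate use were lowest in the IgG mice, and others of these lists were not. Cs, citrate synthase, was listed at 242, 227 and 194 FPKM in Control, 114, 163 and 134 FPKM in IgG and 193, 216 and 224 FPKM in anti-A9. The IgG mice were below all others, with log2 fold changes of -0.70 against Control (adjusted p = 0.036) and 0.64 for anti-A9 against IgG (adjusted p = 0.035, limma), calls that passed in 2 and 3 of 9 fits without a mouse, the first also being lost after rescaling without mitochondrially encoded genes. The first failed without Control 1, Control 2, IgG 1, IgG 3 or any 1 anti-A9 mouse, and the second without Control 2, IgG 1, IgG 3 or any 1 anti-A9 mouse. Of the 16 cycle genes tested, 2 fell in IgG against Control (Cs and Idh3b, the latter in 0 of 9 fits without a mouse), where 3.01% of all genes fell, with a list median of -0.32, and 1 rose in anti-A9 against IgG, where 6.72% of all genes rose.

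Slc16a1, a carrier of butyrate and lactate, was listed at 44.1, 58.9 and 52.7 FPKM in Control, 10.6, 26.2 and 19.5 FPKM in IgG and 38.6, 53.8 and 47.8 FPKM in anti-A9. It fell in IgG against Control (log2 fold change -1.54, standard error 0.30, adjusted p = 0.015, limma; lost without Control 2) and rose in anti-A9 against IgG (log2 fold change 1.39, standard error 0.30, adjusted p = 0.019, limma; lost without anti-A9 2 or anti-A9 3), the IgG mice being below all others. Of 24 genes of butyrate and fatty acid oxidation, 1 rose and 1 fell in IgG against Control (8.18% and 3.01% of all genes), and 3 rose and 1 fell in anti-A9 against IgG (6.72% and 14.4%). The sodium-coupled butyrate transporter Slc5a8 was among the 3, with 1.84, 23.5 and 5.84 FPKM in IgG and 38.4, 49.4 and 44.5 FPKM in anti-A9 (adjusted p = 0.034, limma; passing in 3 of 9 fits, those without Control 1, Control 3 or IgG 2, and lost after the length correction and with only the compared groups in the fit).

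Of 22 genes of mitochondrial carriers, import and membrane organization, 1 rose and 1 fell in IgG against Control (8.18% and 3.01% of all genes) and 3 fell in anti-A9 against IgG (14.4% of all genes), counts near those shares. Slc25a4, an ADP/ATP carrier, was listed at 43.2, 63.1 and 62.6 FPKM in Control, 102, 84.6 and 118 FPKM in IgG and 72.5, 67.3 and 54.6 FPKM in anti-A9. All IgG mice were above all others, with a rise against Control (log2 fold change 0.86, standard error 0.20, adjusted p = 0.029, limma) that passed in 4 of 9 fits and was lost without Control 1, Control 2, IgG 1, IgG 3 or anti-A9 2. Tomm40, the channel of the outer membrane import machinery, was listed at 29.5, 28.1 and 38.2 FPKM in Control, 44.5, 42 and 42.6 FPKM in IgG and 26.3, 22.5 and 25.8 FPKM in anti-A9. The groups did not overlap in any pair, and the fall in anti-A9 against IgG (log2 fold change -0.79, standard error 0.14, adjusted p = 0.012, limma) passed in 8 of 9 fits, all but that without anti-A9 2, and after the length correction. The prohibitin Phb fell by 0.83 (adjusted p = 0.02) and Phb2 by 0.59 (adjusted p = 0.031) on the log2 scale in the same comparison (limma), and both were lost after the length correction, after rescaling without mitochondrially encoded genes and without anti-A9 1 or anti-A9 2, Phb also without IgG 1 and Phb2 also without Control 2, IgG 3 or anti-A9 3. The uncoupling protein Ucp2 was listed at 98.3, 89.7 and 119 FPKM in Control, 114, 112 and 104 FPKM in IgG and 78.9, 86.9 and 89.1 FPKM in anti-A9, with anti-A9 below all other mice and no comparison passing (adjusted p = 0.084 for anti-A9 against IgG, limma). In anti-A9 against Control no gene of these lists passed in limma, and at an unadjusted p under 0.05 the assembly factors had 11 lower and 1 higher, the carriers, import and membrane genes 6 lower and 1 higher, the cycle genes 3 lower, the butyrate and fatty acid genes 3 lower, the biogenesis regulators 1 higher and Ucp2 none, where 7.10% of all genes were lower and 8.87% higher.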

How the data were processed

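The authors deposited 1 table per mouse of values read here as FPKM for 21544 rows, and their processing notes name TopHat, Cufflinks, HTSeq, DESeq and GRCm38 without versions. Neither the file headers, the labels nor the study's methods state the unit. It was inferred from the values and the tools, so that levels are comparable between genes of different length only if it is right. Because the deposited values are not counts, limma took the place of the count test of the study. The 46 repeated rows were summed with their symbol, leaving 21498 symbols, of which 3877 were at 0 in all mice. Genes that reached 0.1 FPKM in 3 or more mice were kept, and log2(FPKM + 0.1) was fitted in limma 3.58.1 (R 4.3.3) with an intensity trend over all 9 mice. The added 0.1 draws fold changes of low genes toward 0, but values of 0 in single mice can enlarge or turn them. For mt-Atp8, listed at 0 in Control 3, the log2 fold change of anti-A9 against Control was 1.43, while the ratio of group means was 0.879. P-values were adjusted by the Benjamini-Hochberg method over the 15278 genes tested and called under 0.05. The steps were tested on simulated data.

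Transcript lengths and the 50-base windows came from GENCODE M21, promoters from RefSeq. In the length correction, added after seeing the data, each mouse's log2 values were regressed on the log2 length of the longest transcript by lowess. Other alternatives were another pseudocount, no filter, median-of-ratios scaling, rescaling without mitochondrially encoded genes, fits of only the compared groups, a replicate block, no intensity trend (also added after seeing the data), a call by unadjusted p and fold, and leaving out each mouse. Figures and tables were made with Python 3.11.15, pandas 2.3.3, numpy 2.4.6 and matplotlib 3.10.9.

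The members and lists were chosen with earlier results of these data known. Named were all mitochondrially encoded, complex II, cytochrome c and tissue-restricted members, the largest called changes of each other role (or, where none was called, the largest change), and up to 3 genes per pathway list and comparison with the smallest adjusted p among genes with a group mean of at least 1 FPKM. Nothing in the labels says that mice of a group shared a batch. Each p-value sets a difference of group means against the spread between these mice, which limma pulls toward the trend of genes at a like level. A printed standard error can therefore be wider or narrower than the mice of that gene alone would give. The values of 1 gene of the pathway lists are not reported here, and the list counts include it.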

Additional observations from a re-analysis of the deposited data

How the results depend on the processing

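The 1 member higher in IgG than in Control (Ndufa4) was not called (0) without the filter, with median-of-ratios scaling, with only the compared groups, with the replicate block, without the intensity trend or by unadjusted p and more than 2-fold, and leaving out a mouse gave 0 to 2. Of all genes, 1202 rose without the filter, 987 with median-of-ratios scaling and 518 with only the compared groups. With the block 1209 rose, without the trend 1133 and without a mouse 511 to 1383. The 2 lower members became 0 with only the compared groups and 10 with the transcript length correction, and 0 to 3 without a mouse. Of all genes, 109, 701 and 80 to 784 fell in these settings. In anti-A9 against IgG, 0 higher members became 1 with the replicate block and 4 with the length correction, where 1135 and 921 of all genes rose. The 6 lower members became 2 with median-of-ratios scaling, 2 with rescaling without mitochondrially encoded genes, 11 with only the compared groups, 10 with the replicate block, 0 with the length correction and 1 by unadjusted p and more than 2-fold. Of all genes, 1704 fell with median-of-ratios scaling, 982 with the rescaling and 2066 with only the compared groups. With the block 2226 fell, and with the length correction 1496. Without a mouse they numbered 0 to 13: 13 without Control 3, 2 without Control 2 or IgG 3, 1 without IgG 1 and 0 without any 1 of the anti-A9 mice. Over all genes, 2668 fell without Control 3, 1593 without Control 2 and 1013 without IgG 3. Without IgG 1 it was 1157, and without an anti-A9 mouse 428 to 854. In anti-A9 against Control 0 lower members became 2 by unadjusted p and more than 2-fold, and every other alternative run left both counts at 0. Fewer mice or groups in a fit lower its degrees of freedom, and the cause of the other changes was not tested. No direction of a called member reversed. Of the other pathway calls named, those of Polg2, Ppargc1b, Cs, Idh3b, Slc16a1 and Slc25a4 in IgG against Control and of Slc5a8 in anti-A9 against IgG were lost with only the compared groups, those of Slc25a4 and Phb2 with median-of-ratios scaling, and that of Idh3b in addition with the other pseudocount, without the filter, after rescaling and without the intensity trend. The block rests on numbers that do not pair the mice: correlations of deviations between equally numbered mice ran from -0.19 to 0.25. The depth behind the FPKM is unknown, so counting error of low members, such as Cox8b and Cox6a2, could not be given.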
